A study of Arabidopsis thaliana with 8 samples.

Results

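The comparison is that of an ein2-5 father with a Col-0 father on an ein2-5 mother, in endosperm of Arabidopsis thaliana taken by laser capture microdissection 6 days after pollination. It uses 4 of the 8 libraries of the series, chosen by their labelled cross: 2 of ein2-5 x ein2-5 and 2 of ein2-5 x Col-0. The remaining 4 libraries, 2 of Col-0 x ein2-5 and 2 of Col-0 x Col-0, make the same change of father on a Col-0 mother and were used for that contrast. Col-0 is the wild-type accession, and ein2-5 is a loss-of-function line for EIN2. Which parent was the mother is not stated in the labels, and the parent written first was treated as such. Given that reading, the mother's own tissues, the seed coat among them, are ein2-5 in both crosses. The endosperm and embryo differ in their paternal genome, so that with a Col-0 father they carry a wild-type EIN2 copy beside the maternal ein2-5 copies, and with an ein2-5 father they carry ein2-5 copies alone. Captured endosperm borders seed coat and embryo, and the labels do not say whether replicates came from separate plants, so the p-values reflect library-to-library spread, which may be technical.

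EIN2 is a membrane protein of the endoplasmic reticulum that passes the ethylene signal from the receptors and the kinase CTR1 to the transcription factors EIN3 and EIL1 in the nucleus. Endosperm is a product of fertilisation that feeds the embryo. In Arabidopsis it first divides as a syncytium, with free nuclei, and then forms cell walls from the embryo end onwards, a step called cellularization. AGL62, a type I MADS-box transcription factor, keeps the endosperm syncytial, and its decline accompanies cellularization. Because endosperm receives more maternal than paternal genomes and expresses some genes from one parental allele alone, exchanging the father and exchanging the mother need not have the same outcome.

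No gene passed an adjusted p of 0.05 in this comparison: 0 of 19719 tested genes were called (limma on log2(FPKM + 1), percent called 0.0), and the smallest adjusted p was 0.069. At an unadjusted p under 0.05, 1056 genes were higher with the ein2-5 father (5.36%) and 298 were lower (1.51%). Both ein2-5 x ein2-5 libraries lay above both ein2-5 x Col-0 libraries for 5165 genes (26.2%) and below both for 2690 genes (13.6%). The median log2 change over all genes was 0.08, and 60.1% of genes were above 0. All differences below are therefore descriptions of these 4 libraries, and counts within gene groups are to be read against those shares. When each of the 4 libraries was left out in turn, the median log2 change kept its sign in 10 of 25 gene lists and did not in 15. The excess of higher over lower genes moved with the scaling: at an unadjusted p under 0.05, 775 were higher and 509 lower after median-ratio scaling, 597 and 589 after quantile normalization, and 1046 and 1030 with estimated depth as a covariate.

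The 4 libraries held between 19125 and 20951 genes above 0 FPKM (fragments per kilobase of transcript, scaled to the mapped fragments of a library). Their estimated depths were 1240000 and 1130000 fragments with the Col-0 father and 1290000 and 2060000 with the ein2-5 father. A single fragment on a transcript of 1500 nt was worth 0.43 to 0.78 FPKM, and values near that size are weak. Across genes, replicates correlated at 0.943 with the Col-0 father and at 0.950 with the ein2-5 father, while the 4 pairs between the crosses ran from 0.928 to 0.956. On the first principal component (25.7% of variance), both ein2-5 x ein2-5 libraries stood at 45.5 and 41.3, and those of ein2-5 x Col-0 at 18.3 and -25.5. The ein2-5 x Col-0 replicates were thus farther apart from each other than those of ein2-5 x ein2-5.

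EIN2 itself had 26.15 and 22.19 FPKM with the Col-0 father and 19.66 and 23.66 FPKM with the ein2-5 father (log2 change -0.15 ± 0.28 SE, adjusted p = 0.93). These pairs overlap. With a Col-0 mother it was higher, at 35.72 and 54.85 FPKM after a Col-0 father and 31.39 and 50.03 FPKM after an ein2-5 father. Every ein2-5-mother library was below every Col-0-mother library, whatever the father. The position of the ein2-5 lesion within the transcript is not in the sources used here, so the FPKM value cannot separate mutant from wild-type transcripts.

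Oleosin genes were lower with the ein2-5 father, and OLEO2 led the lower genes. Oleosins are small proteins that coat oil bodies in seeds, and they are made together with albumins and cruciferins, the stored seed proteins, as seeds fill. Of 16 genes matched to the list of oleosins and storage proteins, 8 were at 0 in all libraries and 7 were tested; 6 of those 7 were lower with no overlap between crosses, against 13.6% of all genes. The median log2 change of the 7 was -1.02, against 0.08 over all genes, and 4 had an unadjusted p under 0.05, against 1.51% of all genes. The remaining gene was above 0 but under the filter on low values, so these counts cover the 7 tested members and not the whole list. The naming rule took OLEO2 and OLEO3, and OLEO1, OLEO4, SESA1, SESA2 and CRA1 were named after their values were seen.

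OLEO2 was at 65.87 and 44.83 FPKM with the Col-0 father and at 15.23 and 18.24 FPKM with the ein2-5 father. Its mean was 3.31-fold lower with the ein2-5 father (log2 change -1.65 ± 0.21 SE, unadjusted p = 5.9e-05, adjusted p = 0.29). The 4 Col-0-mother libraries lay between, from 36.09 to 38.32 FPKM. OLEO2 was therefore highest in ein2-5 x Col-0 and lowest in ein2-5 x ein2-5. OLEO4 was at 36.77 and 17.30 FPKM with the Col-0 father and at 11.39 and 11.07 FPKM with the ein2-5 father (log2 change -1.1 ± 0.33 SE, adjusted p = 0.69). OLEO1 was at 29.94 and 24.65 FPKM against 9.62 and 17.28 FPKM (log2 change -1.02 ± 0.39 SE, adjusted p = 0.71), where the ein2-5 x ein2-5 values lie among those of a Col-0 mother, 9.61 to 20.63 FPKM. OLEO3, the most abundant of them, was at 419.11 and 493.19 FPKM against 326.23 and 328.10 FPKM (log2 change -0.47 ± 0.16 SE, adjusted p = 0.71). In OLEO2, OLEO3 and OLEO4 both ein2-5 x ein2-5 libraries were below all 6 others, which held for 3.01% of genes.

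Among the storage proteins, SESA1, a 2S albumin, was the member that was not lower: 32.14 and 19.60 FPKM with the Col-0 father and 49.89 and 19.36 FPKM with the ein2-5 father, overlapping (log2 change 0.30 ± 0.49 SE, and -0.36 without ein2-5 x ein2-5 replicate 1). SESA2, another albumin, was at 10.04 and 3.67 FPKM against 3.22 and 1.01 FPKM, a few fragments per library. CRA1, a 12S cruciferin, was at 6.00 and 9.22 FPKM against 2.89 and 3.61 FPKM, but its Col-0 x Col-0 replicates alone spanned 1.09 to 20.71 FPKM. The embryo is another source of these transcripts: embryo markers also lay lower (2 of 8 tested higher, median log2 change -0.65), with a summed level of 204.9 and 221.0 FPKM with the Col-0 father and 121.6 and 182.2 FPKM with the ein2-5 father. Leaving out ein2-5 x Col-0 replicate 2 gave a median of -0.13, and leaving out ein2-5 x ein2-5 replicate 1 gave -0.11. These markers are all on the longer list of embryo pattern genes, which did not lie lower as clearly. Of that list 7 of 15 tested were higher, with a median of -0.25, or 0.53 without ein2-5 x ein2-5 replicate 1. Most of each embryo marker sum was PDF1, at 141.41 and 154.31 FPKM with the Col-0 father and 62.87 and 112.82 FPKM with the ein2-5 father. The sums therefore say little about the other embryo markers. DRN was at 0 in both ein2-5 x Col-0 libraries, and STM and CUC2 were at 0 in one ein2-5 x ein2-5 library each. DRN, STM and CUC2 were named after their values were seen. The part of embryo RNA in the oleosin values was not tested, and fewer cells of a type cannot be told apart from less RNA per cell in such bulk samples.

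The promoters of OLEO4, OLEO1, OLEO3 and SESA1 are shown because these oleosins were lower together and SESA1 was not. Each run is the 250 bases before the annotated gene start, from RefSeq assembly TAIR10.1, read 5′ to 3′ on the gene's strand. Capitals mark every match to the RY motif CATGCA, bound by the seed maturation factors of the ABI3 family, and to ACGTG, the core of abscisic acid response elements and of the G-box CACGTG, on both strands.

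OLEO4 (chr3:10242994-10243243, plus strand): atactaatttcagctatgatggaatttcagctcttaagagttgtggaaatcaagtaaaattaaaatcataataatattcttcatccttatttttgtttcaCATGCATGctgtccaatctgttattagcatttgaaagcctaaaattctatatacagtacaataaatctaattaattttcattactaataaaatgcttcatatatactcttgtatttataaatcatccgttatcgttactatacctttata
OLEO1 (chr4:12900180-12900429, plus strand): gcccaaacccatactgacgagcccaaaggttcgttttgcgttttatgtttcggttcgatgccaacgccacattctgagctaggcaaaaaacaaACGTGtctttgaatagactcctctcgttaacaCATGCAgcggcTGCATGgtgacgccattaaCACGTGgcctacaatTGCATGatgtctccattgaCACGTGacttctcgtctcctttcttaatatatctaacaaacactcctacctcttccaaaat
OLEO3 (chr5:20819818-20820067, plus strand): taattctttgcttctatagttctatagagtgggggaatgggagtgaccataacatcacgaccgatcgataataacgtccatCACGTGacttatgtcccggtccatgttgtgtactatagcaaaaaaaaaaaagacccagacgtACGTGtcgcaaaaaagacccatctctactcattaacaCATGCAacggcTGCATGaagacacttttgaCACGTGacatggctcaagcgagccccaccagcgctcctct
SESA1 (chr4:13607079-13607328, plus strand): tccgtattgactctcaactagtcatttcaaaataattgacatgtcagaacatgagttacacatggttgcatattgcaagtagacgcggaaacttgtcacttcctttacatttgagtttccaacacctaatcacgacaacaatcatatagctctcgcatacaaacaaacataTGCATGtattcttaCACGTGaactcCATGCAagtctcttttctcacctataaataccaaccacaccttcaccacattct

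Of the tested members of the list, 6 were searched, and all 6, SESA1 included, had an RY match in this window, against 8.42% of 27561 promoters of protein-coding genes of the same length. An ACGTG match, of which every G-box is also one, was found in 4 of the 6, against 22.8% of promoters. OLEO4, with 2 overlapping RY matches, had no ACGTG match. OLEO1 and OLEO3 had 5 each when matches were counted per strand. Each of these promoters holds 2 G-boxes, and a G-box gives a match on both strands, so the sites are fewer than 5. Matches to ATGNANCT, an EIN3-type site, and to GCCGCC, the GCC box bound by ethylene response factors, were in 0 of the 6, against 12.5% and 1.88% of promoters. Presence of RY or ACGTG letters did not sort these lower oleosins from SESA1.

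**Figure D1:**
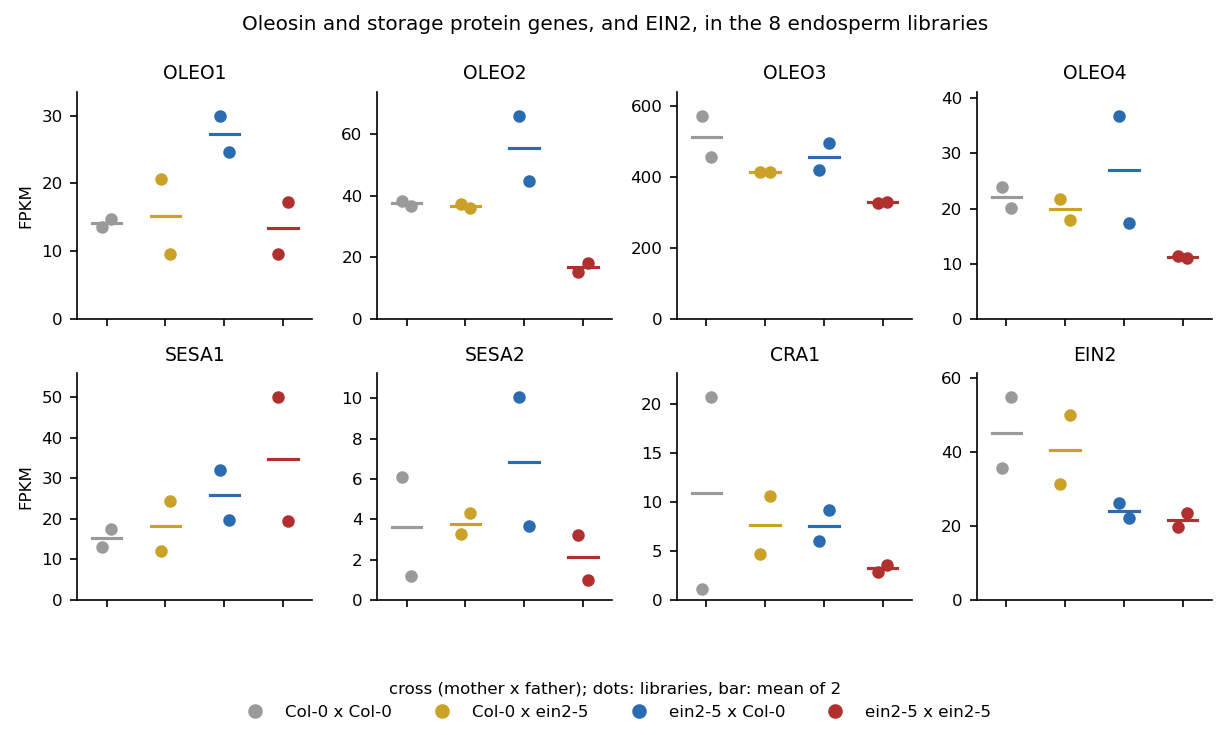
FPKM (y axis, from 0) of the 7 tested oleosin and storage protein genes and of EIN2 in the 8 libraries; dots are libraries, bars the mean of 2, colours the cross. For OLEO2, both ein2-5 x ein2-5 dots (15.23 and 18.24) lie below all others and both ein2-5 x Col-0 dots (65.87 and 44.83) above them.

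Of the transcription factors that drive seed maturation, 5 of 12 were higher and 7 lower (median log2 change -0.03). LEC1, a CCAAT-box factor and the most abundant, was at 439.77 and 449.85 FPKM with the Col-0 father and 405.18 and 329.69 FPKM with the ein2-5 father (log2 change -0.28 ± 0.15 SE, adjusted p = 0.75). ABI3, the factor that binds RY motifs, was named after its values were seen and stood at 7.38 and 9.79 FPKM against 4.44 and 5.74 FPKM (log2 change -0.65 ± 0.34 SE, adjusted p = 0.75). The smallest p belonged to BZIP53, a bZIP factor of seed protein genes, which was higher: 124.36 and 112.27 FPKM against 150.55 and 140.36 FPKM (log2 change 0.30 ± 0.13 SE, adjusted p = 0.72). Among these, LEC1 and ABI3 lay lower without overlap and BZIP53 lay higher without overlap, so the regulators did not share a direction. WRI1, a regulator of oil synthesis and also abundant, overlapped (log2 change -0.02 ± 0.13 SE).

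Beyond the oleosins, the 10 genes that the naming rule took as lower included SYTA, GSTU20 and several genes of small secreted proteins. The rule took genes with no overlap between the crosses, so that separation is no finding. SYTA, a synaptotagmin of plasma membrane contact sites, was tight between replicates: 79.05 and 77.18 FPKM with the Col-0 father and 49.49 and 55.47 FPKM with the ein2-5 father (log2 change -0.57 ± 0.13 SE, adjusted p = 0.69). With a Col-0 mother SYTA was at 118.10 and 128.42 FPKM after Col-0 and 88.39 and 96.28 FPKM after ein2-5, lower with the ein2-5 father there too. GSTU20, a tau-class glutathione transferase, was at 64.48 and 73.56 FPKM against 23.14 and 40.34 FPKM (log2 change -1.15 ± 0.24 SE). AT3G50020, which encodes a serine protease inhibitor of the potato inhibitor I type, was at 355.56 and 349.93 FPKM against 236.23 and 222.60 FPKM (log2 change -0.62 ± 0.13 SE). AT4G30880, a lipid-transfer and 2S albumin superfamily gene, was at 277.40 and 265.91 FPKM against 82.81 and 98.93 FPKM (log2 change -1.57 ± 0.36 SE). AT1G47540, a knottin-type small protein gene, was at 50.67 and 42.96 FPKM against 3.14 and 16.29 FPKM, a wide gap between the ein2-5 x ein2-5 replicates. The others of this set, AT3G61118 and AT1G79075 (noncoding RNAs), AT5G56120 (an RNA polymerase II elongation factor gene) and AT1G70030 (a paired amphipathic helix gene), had log2 changes from -1.57 to -0.70. Their adjusted p-values were all 0.69.

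The 3 smallest p-values of the whole comparison were of genes at 0 in ein2-5 x Col-0, and they rest on very few fragments. AT1G69825, a defensin-like gene, had 38.30 and 24.26 FPKM with the ein2-5 father and 0 in every other library, and AT5G58412, annotated as a putative membrane lipoprotein gene, at a mean of 22.5 FPKM there and likewise at 0 elsewhere. AT5G17480, the gene of pollen calcium-binding protein 1, had 0 with the Col-0 father and 20.81 and 13.12 FPKM with the ein2-5 father. Multiplied by relative depth, its FPKM came to between 21.0 and 21.2 in all 6 libraries above 0, AT1G69825 to 38.7 and 39.2, and AT5G58412 to 27.8 and 28.1. Equal products mean that the same number of fragments was counted in each of these libraries. The adjusted p-values of AT1G69825, AT5G58412 and AT5G17480, 0.069, 0.076 and 0.14, come with that equality. No fold change is given for them, since the other cross is listed at 0.

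The 7 remaining genes of the higher set were expressed in every library. AT5G50050, of the invertase and pectin methylesterase inhibitor superfamily, was at 39.50 and 24.78 FPKM with the Col-0 father and 85.16 and 84.95 FPKM with the ein2-5 father, 2.65-fold higher (log2 change 1.41 ± 0.21 SE, adjusted p = 0.56). The 4 Col-0-mother libraries, 39.38 to 51.22 FPKM, were near the level of ein2-5 x Col-0. AT4G30470, of the NAD(P)-binding Rossmann-fold type, was at 24.33 and 19.42 FPKM against 68.17 and 50.14 FPKM (log2 change 1.39 ± 0.22 SE, adjusted p = 0.62). SCRL15, a cysteine-rich secreted peptide gene, was at 113.56 and 67.99 FPKM against 248.63 and 212.25 FPKM (log2 change 1.38 ± 0.26 SE, adjusted p = 0.69). AT5G62150 (a LysM domain gene), AT5G60030 (uncharacterized), AT5G61820 (a Nod19-like stress gene) and AT5G10660 (calmodulin-binding protein-like) had log2 changes from 0.90 to 1.72.

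Seed coat genes of flavonoid and tannin synthesis were higher with the ein2-5 father, although the seed coat is a maternal tissue of the same genotype in both crosses. The pathway leads from chalcone synthase (TT4) through DFR and LDOX to BAN, the anthocyanidin reductase that makes the tannin precursors of the inner seed coat, and TT10 is the laccase that later oxidises them. Of 17 members, 15 were higher and 2 lower, 10 lay above without overlap (26.2% of all genes did), and the median log2 change was 0.81 against 0.08. At an unadjusted p under 0.05, 8 members were higher, against 5.36% of genes. None passed the adjusted threshold; the smallest adjusted p was 0.69. All 3 other scalings gave the same count of 15 higher, with medians from 0.72 to 0.87.

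TT10 had the smallest p of the list, at 37.92 and 20.81 FPKM with the Col-0 father and 56.57 and 62.06 FPKM with the ein2-5 father (log2 change 1.05 ± 0.26 SE, adjusted p = 0.69). TT4, the most abundant, was at 333.22 and 150.44 FPKM against 446.56 and 268.08 FPKM, overlapping (log2 change 0.63 ± 0.41 SE, adjusted p = 0.78). BAN was at 154.19 and 85.09 FPKM against 248.65 and 173.83 FPKM (log2 change 0.85 ± 0.28 SE, adjusted p = 0.71). The members that follow were named after their values were seen. DFR was at 117.88 and 75.83 FPKM against 197.47 and 139.65 FPKM (log2 change 0.81 ± 0.24 SE, adjusted p = 0.69). TT16, a MADS-box regulator of BAN in the seed coat, was at 2.59 and 2.85 FPKM against 15.55 and 7.78 FPKM (log2 change 1.7 ± 0.46 SE, adjusted p = 0.69). The 2 members that were lower were TTG1 and FLS1. TTG1, a WD40 regulator also used outside the seed coat, was at 60.37 and 56.38 FPKM against 53.70 and 56.56 FPKM, and FLS1, which diverts the pathway to flavonols, was at 15.34 and 14.32 FPKM against 11.09 and 12.93 FPKM.

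The libraries of a cross were not alike in this group. In TT4, BAN, DFR and TT10, ein2-5 x Col-0 replicate 2 was the lower of its pair. Without that library the list's median log2 change was 0.43, and without ein2-5 x Col-0 replicate 1 it was 1.2, so the size of the difference depended on which replicate was used. Seed coat markers lay in the same direction: 8 of 9 were higher, with a median log2 change of 0.67 and a summed level of 694.1 and 387.6 FPKM with the Col-0 father and 922.7 and 665.3 FPKM with the ein2-5 father. The markers' median was 1.2 if ein2-5 x Col-0 replicate 1 was left out and 0.46 if its replicate 2 was. Dropping an ein2-5 x ein2-5 library gave 0.57 (replicate 1) or 0.98 (replicate 2). Of these 9 markers, TT4, BAN, TT12, TT10 and AHA10 are also on the flavonoid list, and the rest on the mucilage list. None of the 9 was at 0 in any library. The share of seed coat RNA in the captured tissue was not measured, and its part in these values was not tested.

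Mucilage genes, which act in the outer seed coat, were higher in 9 of 12, against 60.1% of all genes (median log2 change 0.28), with 6 above without overlap, against 26.2%. Leaving out ein2-5 x ein2-5 replicate 1 gave 0.48, leaving out its replicate 2 gave 0.08, and leaving out ein2-5 x Col-0 replicate 2 gave 0.15. GL2, a homeodomain regulator of mucilage secretory cells, had the smallest p, at 10.63 and 5.91 FPKM with the Col-0 father and 21.98 and 12.73 FPKM with the ein2-5 father (log2 change 0.99 ± 0.37 SE, adjusted p = 0.71). The more abundant SBT1.7, a subtilase of mucilage release, was at 136.20 and 108.25 FPKM against 118.91 and 117.44 FPKM, a log2 change of -0.04 ± 0.15 SE. The high and the low members of this list therefore did not show one shift.

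**Figure D2:**
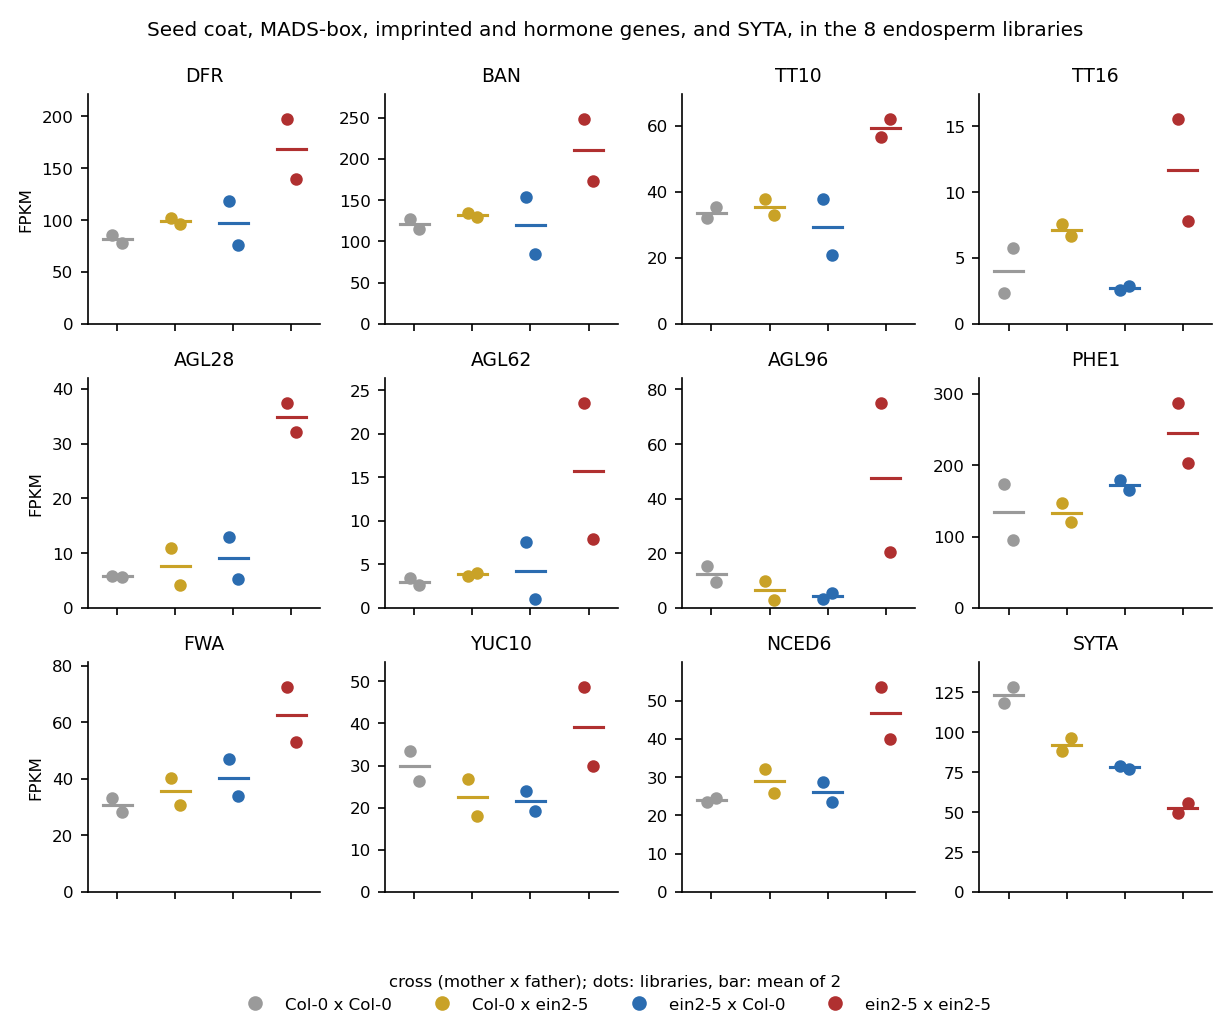
FPKM (y axis, from 0) of 12 genes in the 8 libraries; dots are libraries, bars the mean of 2, colours the cross. AGL28 lies at 37.43 and 32.17 in ein2-5 x ein2-5 and at 4.16 to 12.95 elsewhere, and SYTA is lowest in ein2-5 x ein2-5 (49.49 and 55.47).

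Type I MADS-box genes, which encode transcription factors of the female gametophyte and early endosperm, were mostly higher with the ein2-5 father. Of 15 tested, 12 were higher and 3 lower, 8 were above all 6 other libraries, where 11.2% of all genes were, and the median log2 change was 0.48 against 0.08 over all genes. AGL28 was at 12.95 and 5.33 FPKM with the Col-0 father and 37.43 and 32.17 FPKM with the ein2-5 father, 3.81-fold higher (log2 change 1.93 ± 0.49 SE, adjusted p = 0.69). AGL96 had the smallest p of the list, at 3.39 and 5.58 FPKM against 75.03 and 20.39 FPKM (log2 change 2.91 ± 0.68 SE, adjusted p = 0.69). AGL62 was at 7.52 and 1.03 FPKM against 23.53 and 7.92 FPKM (log2 change 1.83 ± 0.72 SE, adjusted p = 0.72); its groups do not overlap, but the gap between them, 7.52 to 7.92 FPKM, is smaller than the spread within either. PHE1, a paternally expressed type I gene, was at 178.82 and 165.86 FPKM against 287.11 and 202.81 FPKM, and its near-identical neighbour PHE2 at 139.30 and 146.80 FPKM against 230.82 and 173.62 FPKM; reads of this pair may have been split between them. In all of these, replicate 1 of ein2-5 x ein2-5 was the higher. Without that library the list's median was 0.38, and without replicate 2 it was 0.76. AGL87, the most abundant of the list, was not higher, at 381.38 and 380.69 FPKM against 406.12 and 313.28 FPKM, overlapping (log2 change -0.09 ± 0.21 SE, above 0 under quantile normalization and with depth as a covariate). The naming rule took AGL87, AGL96 and PHE1, and AGL28, AGL62 and PHE2 were named after their values were seen.

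Genes expressed from the paternal allele were higher in 8 of 10, against 60.1% of all genes (median log2 change 0.37). Without overlap 6 were above, against 26.2% of all genes, and none below, against 13.6%. YUC10, an auxin synthesis enzyme, was at 23.87 and 19.15 FPKM with the Col-0 father and 48.65 and 29.85 FPKM with the ein2-5 father (log2 change 0.81 ± 0.29 SE, adjusted p = 0.71). TAR1, an aminotransferase of the same route named after its values were seen, was at 7.23 and 1.98 FPKM against 15.67 and 9.25 FPKM (log2 change 1.4 ± 0.53 SE, adjusted p = 0.71). PKR2, a chromatin remodeller of the PICKLE family, was at 12.33 and 14.20 FPKM against 22.06 and 20.01 FPKM (log2 change 0.63 ± 0.23 SE, adjusted p = 0.71). HDG3, a homeodomain gene and the most abundant of the list, was at 316.88 and 277.50 FPKM against 356.76 and 230.22 FPKM, overlapping, with a log2 change of -0.05 ± 0.26 SE that turns sign under quantile normalization and with depth as a covariate. FPKM values sum both alleles, so which parental allele was expressed cannot be told from them.

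Maternally expressed genes and subunits of the Polycomb complex PRC2 were higher in 10 of 14, near the 60.1% of all genes (median log2 change 0.25). Of these 14, 7 were above without overlap, against 26.2% of all genes, and 1 was below, against 13.6%. As single libraries were left out, the median ran from 0.18 (ein2-5 x Col-0 replicate 2) to 0.43 (ein2-5 x ein2-5 replicate 2). The most abundant members overlapped between the crosses: SDC, an F-box gene, was at 189.75 and 140.18 FPKM with the Col-0 father and 226.59 and 182.39 FPKM with the ein2-5 father (log2 change 0.32 ± 0.19 SE), and MSI1, a PRC2 subunit, had a log2 change of -0.02 ± 0.12 SE. MPC, a maternally expressed gene with homology to poly(A)-binding proteins, had the smallest p, at 10.77 and 2.96 FPKM against 23.34 and 21.09 FPKM (log2 change 1.76 ± 0.46 SE, adjusted p = 0.69). FWA, a homeodomain gene active in endosperm from the maternal allele, was at 47.01 and 33.99 FPKM against 72.54 and 52.91 FPKM (log2 change 0.62 ± 0.24 SE, adjusted p = 0.72), and MEA, the PRC2 methyltransferase of endosperm, at 5.35 and 1.35 FPKM against 12.68 and 5.45 FPKM (log2 change 1.28 ± 0.57 SE, adjusted p = 0.73). FIE, a PRC2 subunit used throughout the plant, was close between crosses, at 136.65 and 129.77 FPKM against 120.62 and 127.38 FPKM (log2 change -0.10 ± 0.12 SE). FWA, MEA and FIE were named after their values were seen. Endosperm markers as a whole were higher in 7 of 9 (median log2 change 0.48), with a summed level of 1156 and 1042 FPKM with the Col-0 father and 1538 and 1166 FPKM with the ein2-5 father. That median was 0.23 without ein2-5 x ein2-5 replicate 1 and 0.73 without replicate 2. The genes PHE1, FWA, AGL62, HDG3, ZOU, ESF1.2 and NCED6, described here with their groups, are among those 9. None of the 9 was at 0.

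Auxin synthesis and response genes were higher in 15 of 20, against 60.1% of all genes (median log2 change 0.31). Without overlap 7 were above and 4 below, against 26.2% and 13.6% of all genes. At an unadjusted p under 0.05 (limma), 5 were higher, against 5.36% of all genes. YUC10 and TAR1, given above with the paternally expressed genes, are among those 5, so the lists are not separate. Leaving out ein2-5 x Col-0 replicate 1 gave a median of 0.53, and leaving out ein2-5 x ein2-5 replicate 2 gave 0.16. IAA8, an abundant Aux/IAA repressor, was lower, at 127.32 and 143.61 FPKM with the Col-0 father and 95.98 and 125.83 FPKM with the ein2-5 father (log2 change -0.30 ± 0.16 SE, adjusted p = 0.75). Abscisic acid synthesis and breakdown genes were higher in 6 of 7, against 60.1% of all genes (median log2 change 0.29), 5 of them without overlap, against 26.2%. NCED6, the endosperm member of the dioxygenases that commit carotenoids to abscisic acid, was at 28.64 and 23.42 FPKM against 53.56 and 39.88 FPKM (log2 change 0.81 ± 0.21 SE, adjusted p = 0.69). CYP707A1, a hydroxylase that breaks the hormone down, was also higher, at 26.44 and 35.89 FPKM against 49.09 and 37.32 FPKM (log2 change 0.46 ± 0.22 SE, adjusted p = 0.73). ABA2, a dehydrogenase of abscisic acid synthesis and the most abundant of the list, was at 62.25 and 54.67 FPKM against 58.26 and 56.75 FPKM, overlapping (log2 change -0.02 ± 0.15 SE, 0.04 with depth as a covariate).

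**Figure D3:**
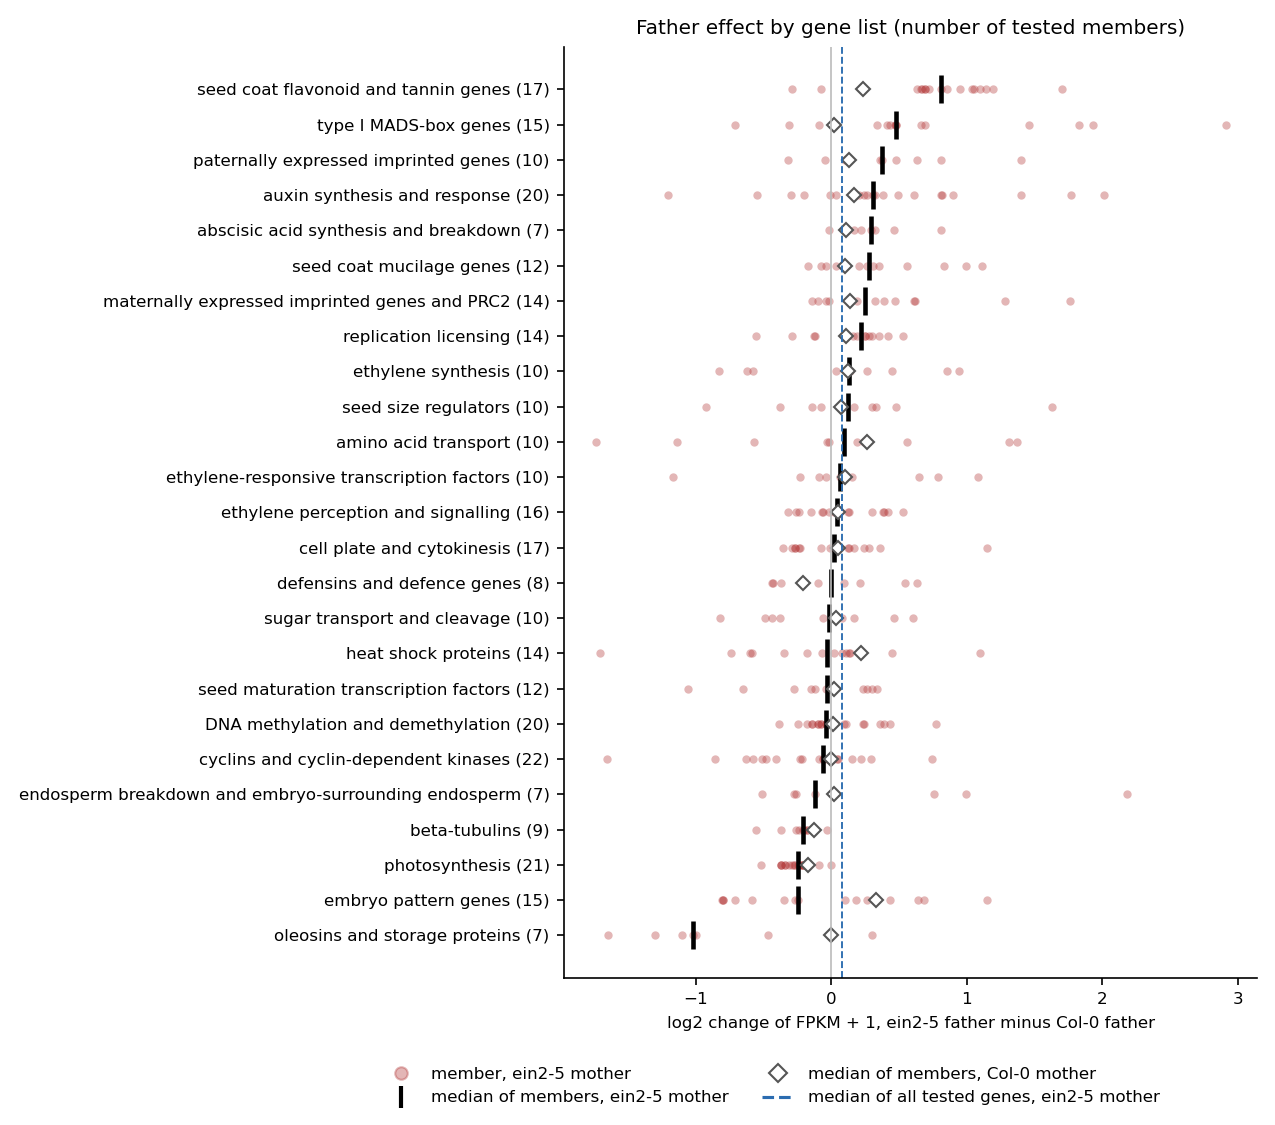
Log2 change of FPKM + 1 with an ein2-5 father (x axis) for 25 gene lists, sorted by median; dots are tested members with an ein2-5 mother, black ticks their median, diamonds the median of the same members with a Col-0 mother, the dashed line the median of all genes (0.08). The flavonoid and tannin list (median 0.81) and the oleosins and storage proteins (median -1.02) stand at the ends, with Col-0-mother medians of 0.23 and 0.00.

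Genes of endosperm breakdown and of the endosperm that surrounds the embryo were split, with 3 of 7 higher and a median log2 change of -0.12. ESF1.2 and ESF1.3, cysteine-rich peptides of the embryo-surrounding endosperm, were higher. ESF1.2 was at 136.62 and 124.98 FPKM with the Col-0 father and 307.10 and 221.31 FPKM with the ein2-5 father (log2 change 0.99 ± 0.27 SE, adjusted p = 0.69). ESF1.3, named after its values were seen, was at 155.39 and 17.06 FPKM against 359.26 and 160.07 FPKM, and its ein2-5 x Col-0 replicates stood far apart (log2 change 2.18 ± 0.85 SE). ZOU and ICE1, the transcription factor partners that promote endosperm breakdown, were not higher: ZOU was at 151.83 and 157.84 FPKM against 127.33 and 159.13 FPKM (log2 change -0.12 ± 0.19 SE), and ICE1 at 325.36 and 357.17 FPKM against 301.92 and 262.47 FPKM (log2 change -0.28 ± 0.14 SE, adjusted p = 0.74).

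Of the machinery of cellularization, the cell plate and cytokinesis genes showed no common direction. They were higher in 9 of 17 and lower in 8 (median log2 change 0.02). KN, the cell plate syntaxin KNOLLE, was at 452.86 and 537.72 FPKM with the Col-0 father and 454.08 and 370.18 FPKM with the ein2-5 father, overlapping (log2 change -0.27 ± 0.20 SE). PLE, the microtubule-associated protein MAP65-3, was at 27.41 and 24.47 FPKM against 31.33 and 36.07 FPKM (log2 change 0.36 ± 0.17 SE, adjusted p = 0.73). All 9 beta-tubulin genes were lower (median log2 change -0.21), 5 of them without overlap, against 13.6% of all genes. All 9 were also lower after median-ratio scaling and with depth as a covariate. After quantile normalization, however, only 6 of 9 were lower. TUB3 was at 397.92 and 398.04 FPKM against 368.21 and 298.85 FPKM (log2 change -0.26 ± 0.17 SE, adjusted p = 0.78). With a Col-0 mother the same 9 were also all lower with the ein2-5 father, with a median of -0.13. Beta-tubulins are close paralogs whose reads may have been shared.

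Cell cycle genes had no clear common direction across their lists. Replication licensing genes were higher in 10 of 14, near the 60.1% of all genes, with a median log2 change of 0.22 that was -0.02 without ein2-5 x Col-0 replicate 1. The most abundant of them, which encode the sliding clamp of DNA polymerase, were lower with overlap: PCNA1 was at 161.80 and 199.82 FPKM with the Col-0 father and 164.08 and 131.37 FPKM with the ein2-5 father (log2 change -0.29 ± 0.23 SE), and PCNA2 had a log2 change of -0.13 ± 0.17 SE. Cyclins and cyclin-dependent kinases were lower in 15 of 22, where 60.1% of all genes were higher. Their median log2 change was -0.06, and 0.00 without ein2-5 x Col-0 replicate 2. Under the other scalings 16 to 18 of 22 were lower. At an unadjusted p under 0.05 (limma), 3 were lower, against 1.51% of all genes, and 0 were higher, against 5.36%. Without overlap 6 were below, against 13.6% of all genes, and 1 above, against 26.2%. The abundant CYCB1;2 and CDKB1;1 overlapped between the crosses, with log2 changes of -0.06 ± 0.17 SE and 0.01 ± 0.12 SE whose sign turned with the scaling. CYCD3;1, a D-type cyclin of cell proliferation, had the smallest p, at 8.98 and 6.57 FPKM with the Col-0 father and 1.15 and 2.52 FPKM with the ein2-5 father (log2 change -1.66 ± 0.54 SE, adjusted p = 0.71). CYCB1;4, a mitotic cyclin named after its values were seen, was at 78.09 and 95.84 FPKM against 61.60 and 61.80 FPKM (log2 change -0.48 ± 0.16 SE, adjusted p = 0.71). Among seed size regulators, 6 of 10 were higher, and the most abundant, ARF2, an auxin response factor, overlapped (log2 change 0.07 ± 0.20 SE, below 0 under the 3 other scalings). IKU1, a VQ-motif protein of the HAIKU pathway, was at 31.32 and 31.04 FPKM against 49.88 and 38.39 FPKM (log2 change 0.48 ± 0.18 SE, adjusted p = 0.71). CKX2, a cytokinin oxidase and target of that pathway named after its values were seen, was at 6.49 and 1.29 FPKM against 19.31 and 7.10 FPKM (log2 change 1.63 ± 0.65 SE, adjusted p = 0.72).

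Of 16 genes of perception and signalling, 9 were higher and 7 lower, with a median log2 change of 0.04 that became -0.04 to -0.09 under the other scalings, and none had an unadjusted p under 0.05. RTE1, which acts with the receptor ETR1 and was the most abundant, was at 179.53 and 159.91 FPKM with the Col-0 father and 131.44 and 152.54 FPKM with the ein2-5 father (log2 change -0.26 ± 0.14 SE, adjusted p = 0.75). The F-box genes EBF1 and EBF2, which target EIN3 for degradation and are induced by ethylene, were named after their values were seen: EBF1 was at 43.11 and 42.59 FPKM against 42.17 and 46.49 FPKM, and EBF2 at 38.64 and 30.24 FPKM against 27.91 and 37.67 FPKM. The log2 change was 0.05 ± 0.20 SE for EBF1, below 0 under the 3 other scalings, and -0.07 ± 0.21 SE for EBF2. ETP1, an F-box protein that targets EIN2, had the smallest p of the list, at 38.79 and 48.88 FPKM against 61.70 and 53.27 FPKM (log2 change 0.39 ± 0.19 SE, adjusted p = 0.74).

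Ethylene-responsive transcription factors were higher in 6 of 10 (median log2 change 0.06) and ethylene synthesis genes in 7 of 10 (median log2 change 0.13), and 0 of these 20 had an unadjusted p under 0.05 (limma). Without ein2-5 x ein2-5 replicate 1 these medians were 0.39 and 0.41, and without replicate 2 they were -0.15 and -0.18. ERF8, the most abundant of the responsive factors, was at 194.83 and 254.48 FPKM with the Col-0 father and 179.37 and 199.70 FPKM with the ein2-5 father (log2 change -0.23 ± 0.21 SE). ERF11 was at 71.84 and 77.61 FPKM against 81.29 and 84.44 FPKM (log2 change 0.15 ± 0.33 SE). RAV1, a B3 and AP2 domain factor, had the smallest p of the responsive factors, at 0.63 and 0 FPKM against 2.43 and 1.14 FPKM, values of a few fragments (log2 change 1.08 ± 0.54 SE, adjusted p = 0.74).

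Transport genes were divided. Sugar transport and cleavage genes were higher in 5 of 10 and amino acid transporters in 5 of 10. The most abundant of them, the sucrose carrier SUC5 and the amino acid carriers AAP1 and CAT6, overlapped between the crosses, with log2 changes of 0.03 ± 0.21 SE, -0.02 ± 0.13 SE and -0.03 ± 0.16 SE. SWEET15, an exporter that moves sucrose out of the endosperm, had the smallest p of the sugar list and was lower, at 213.89 and 238.26 FPKM with the Col-0 father and 137.62 and 188.13 FPKM with the ein2-5 father (log2 change -0.49 ± 0.18 SE, adjusted p = 0.71). UMAMIT14, an amino acid exporter, had the smallest p of its list, at 7.20 and 8.70 FPKM against 2.08 and 1.3 FPKM (log2 change -1.74 ± 0.37 SE, unadjusted p = 0.0017, adjusted p = 0.69). With a Col-0 mother UMAMIT14 lay the other way without overlap, at 2.62 and 3.52 FPKM after Col-0 and 8.41 and 6.17 FPKM after ein2-5, an interaction of -2.77 ± 0.52 SE on the log2 scale (unadjusted p = 0.00083, adjusted p = 1). AAP8, an importer of amino acids into young seeds named after its values were seen, was at 6.36 and 3.10 FPKM against 12.94 and 12.34 FPKM (log2 change 1.31 ± 0.44 SE, adjusted p = 0.71), and it was higher with the ein2-5 father on a Col-0 mother too (log2 change 1.67).

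Embryo pattern genes were higher in 7 of 15 (median log2 change -0.25), and that median was 0.53 without ein2-5 x ein2-5 replicate 1, so its sign rested on that library. PDF1, an epidermal layer gene, was at 141.41 and 154.31 FPKM with the Col-0 father and 62.87 and 112.82 FPKM with the ein2-5 father (log2 change -0.80 ± 0.35 SE, adjusted p = 0.72), and ATML1, an epidermal homeodomain factor named after its values were seen, was higher, at 25.12 and 15.43 FPKM against 32.27 and 30.24 FPKM (log2 change 0.64 ± 0.29 SE, adjusted p = 0.73). DNA methylation and demethylation genes were higher in 8 of 20 (median log2 change -0.04) and heat shock proteins in 7 of 14 (median log2 change -0.03). HSC70-1, a constitutive chaperone, was at 110.18 and 132.04 FPKM against 57.25 and 90.31 FPKM (log2 change -0.74 ± 0.22 SE, adjusted p = 0.69). Defensins and defence genes were higher in 4 of 8. Photosynthesis genes were lower in 20 of 21 (median log2 change -0.25), where 60.1% of all genes were higher. Without overlap 14 were below, against 13.6% of all genes, but 0 of 21 had an unadjusted p under 0.05 (limma). Leaving out ein2-5 x ein2-5 replicate 1 gave -0.43 and leaving out its replicate 2 gave -0.09, and with depth as a covariate the median was -0.04 and 16 were lower. CAB1, a light-harvesting protein gene, was at 936.79 and 958.70 FPKM against 866.40 and 620.27 FPKM (log2 change -0.37 ± 0.33 SE). Photosynthetic markers, a subset of that list, summed to 2962 and 2849 FPKM with the Col-0 father and 2690 and 1994 FPKM with the ein2-5 father.

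**Figure D4:**
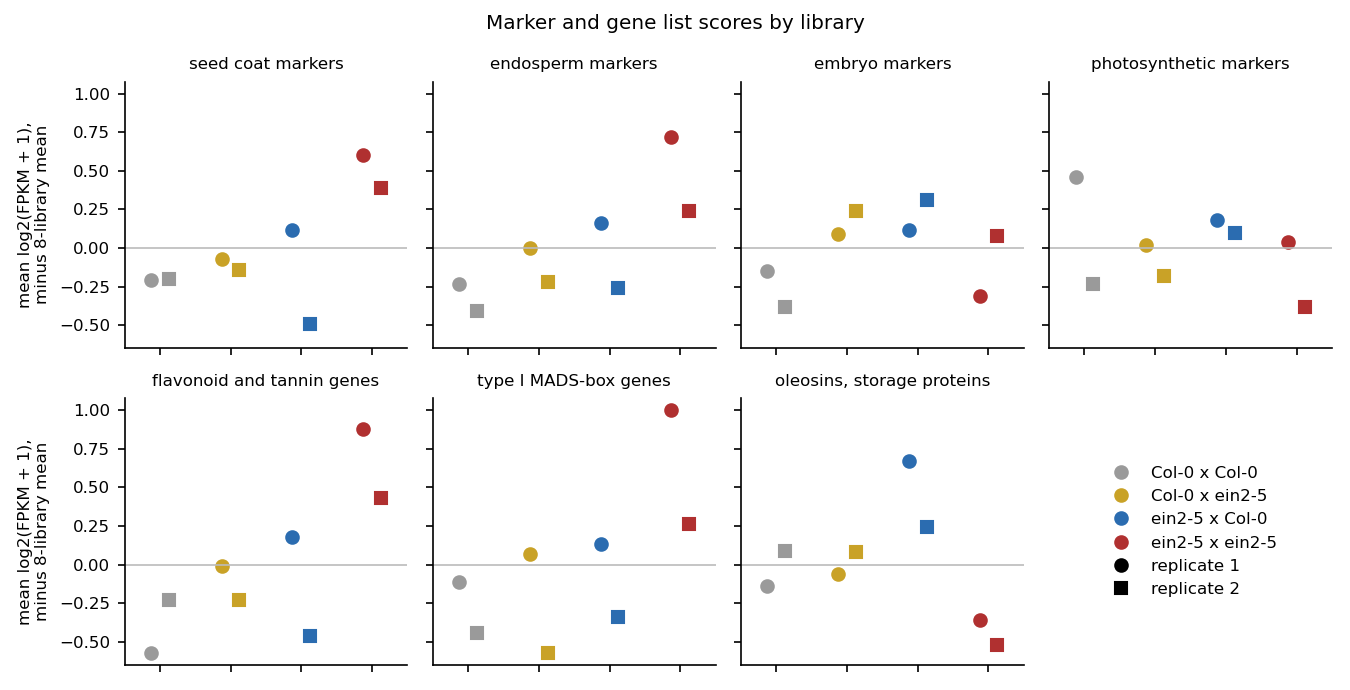
Mean log2(FPKM + 1) of the tested members of 4 marker lists and 3 gene lists in each library, minus the mean over the 8 libraries (y axis); circles are replicate 1, squares replicate 2, colours the cross. For seed coat markers, ein2-5 x Col-0 replicates stand at 0.12 and -0.49 and ein2-5 x ein2-5 at 0.60 and 0.39; oleosins and storage proteins stand at 0.67 and 0.24 against -0.36 and -0.52.

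The same exchange of father on a Col-0 mother shares no library with this comparison. It also had 0 of 19719 genes called (percent called 0.0; 429 higher, 2.18%, and 146 lower, 0.74%, at an unadjusted p under 0.05). Across 14741 genes with a mean of at least 5 FPKM the log2 changes on both mothers correlated at r = 0.12, and 59.6% had the same sign. Across all 19719 tested genes r was 0.07, and 57.2% had the same sign. Of all tested genes, 60.1% were above 0 on the ein2-5 mother and 58.2% on the Col-0 mother. The agreement in sign that such shares alone would give was not computed. The Col-0-mother share depended on the Col-0 x Col-0 library used. Leaving out replicate 1 of that cross gave 45.5% (median log2 change -0.03), and leaving out its replicate 2 gave 63.8% (0.14). Replicate 1 had the lowest estimated depth of the 8 libraries (680000 fragments) and the lowest value on the first principal component (-71.8). The r values and list medians of this paragraph use both libraries, and their dependence on either is not given. Of the 10 genes named as higher here, 5 were higher on a Col-0 mother, where AT1G69825 and AT5G58412 were at 0 in every library and had no direction; of the 10 named as lower, 5 were lower there. The difference between mothers was not tested for lists. The median was 0.81 on the ein2-5 and 0.23 on the Col-0 mother for flavonoid and tannin genes, 0.48 and 0.02 for type I MADS-box genes, 0.37 and 0.13 for paternally expressed genes, and -1.02 and 0.00 for oleosins and storage proteins. It was closer for maternally expressed genes (0.25 and 0.14), photosynthesis genes (-0.25 and -0.17) and beta-tubulins (-0.21 and -0.13).

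The interaction, the father effect on an ein2-5 mother minus that on a Col-0 mother, tests this difference for each gene. It called 0 of 19719 genes (limma, smallest adjusted p = 0.418, percent called 0.0), with 402 above 0 (2.04%) and 260 below 0 (1.32%) at an unadjusted p under 0.05; 51.7% of all interactions were above 0. OLEO2 had an interaction of -1.61 ± 0.30 SE (unadjusted p = 0.00068, adjusted p = 1), OLEO4 of -0.96 ± 0.47 SE and OLEO3 of -0.17 ± 0.23 SE. AT3G50020 had one of -1.13 ± 0.19 SE (unadjusted p = 0.0004, adjusted p = 1), and AT3G61118, AT1G70030 and AT3G43280, an uncharacterized gene, from -2.66 to -1.60. Positive interactions with the smallest p were those of AT1G69825, AT5G58412 and AT5G17480, with the equal fragment numbers described above, of AT4G36791, and of AT5G60030 (1.1 ± 0.22 SE). AT4G36791 had 109.30 and 41.95 FPKM in both Col-0 x Col-0 libraries and 0 elsewhere, and these values times relative depth were equal too, at 58.5. AGL96 (3.92 ± 0.96 SE, unadjusted p = 0.0039) and AGL28 (1.71 ± 0.69 SE) were positive and were named after their values were seen. SYTA had an interaction of -0.15 ± 0.18 SE (unadjusted p = 0.43), so its lower value with an ein2-5 father was of similar size on both mothers within that error.

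**Figure D5:**
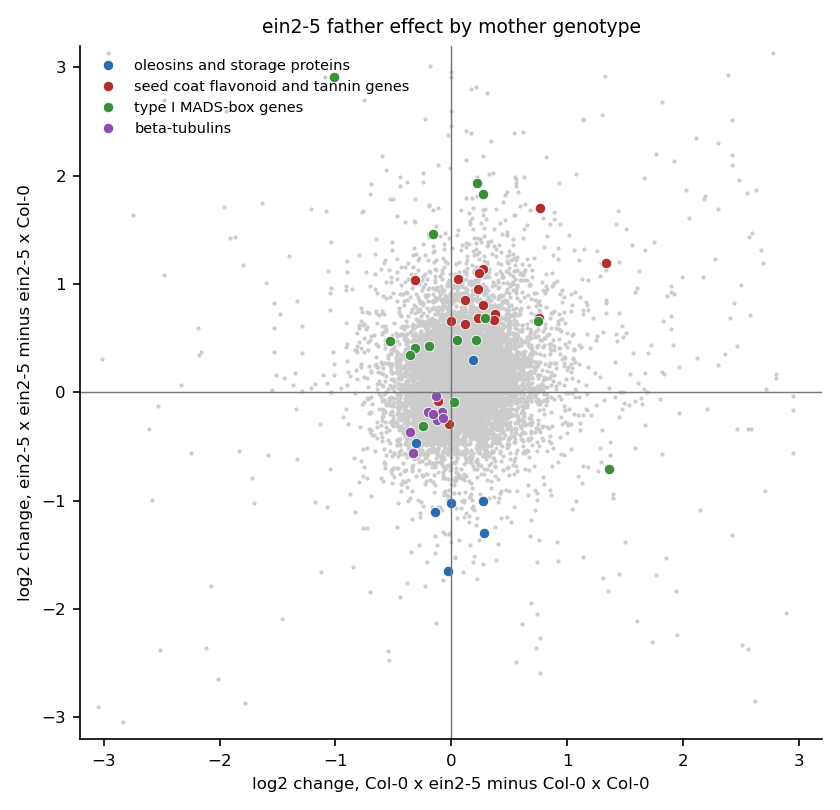
Log2 change with an ein2-5 father on a Col-0 mother (x axis) and on an ein2-5 mother (y axis); grey dots are genes with a mean of at least 5 FPKM (55 of 14741 lie outside the axes), coloured dots the members of 4 lists. Of the flavonoid genes 15 of 17 lie above 0 on the y axis, and of the oleosins and storage proteins 6 of 7 lie below it; all 9 beta-tubulins lie below 0 on both axes.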

How the data were processed

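RNA of endosperm captured by laser was sequenced in 8 libraries, 2 for each of 4 reciprocal crosses. The authors deposited 1 table of FPKM values per gene. Per the submitters' processing notes, TopHat2 2.1.1, SAMtools 1.5, Cufflinks 2.2.1 and the build TAIR10 were used; whether strand was used is not given in the sources used here, so overlapping and antisense genes cannot be told apart. Of 34133 identifiers, 31416 matched the RefSeq annotation of TAIR10.1, and 8 names of the gene lists did not match. All 8 columns were used. FPKM is not a count, so no count model was the main test. Relative depth was estimated from the steps between low FPKM values and gives fragment numbers as estimates.

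Genes with at least 1 FPKM in 2 libraries (19719) were tested on log2(FPKM + 1) with limma 3.58.1 in R 4.3.3: group means of the 4 crosses, all 8 libraries sharing 1 variance estimate (4 residual and 3.72 prior degrees of freedom), moderated with a trend, and Benjamini-Hochberg adjustment over all tested genes at 0.05. Fold changes on this scale understate those of low genes. ± SE is the limma standard error. Levels of different genes were not compared except as FPKM. The fit was tested on simulated data. Alternatives changed the pseudocount, filter, scaling, variance model and libraries.

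Where no gene was called, the naming rule took 10 genes per direction by smallest p among those without overlap and at a mean of at least 5 FPKM, EIN2, and from each list the 2 most abundant members and the one with the smallest p; for the interaction, 5 genes per direction by smallest p. Genes outside it are marked as named after their values were seen. The members and lists were chosen with earlier results of these data known. One promoter and one gene of the lists are not reported here.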

Additional observations from a re-analysis of the deposited data

How the results depend on the processing

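With 2 libraries per cross, the count of called genes was small under every setting tried. For the ein2-5 father on an ein2-5 mother it was 1 with a pseudocount of 0.1, with only the 4 libraries compared and with depth as a covariate, 2 with a pseudocount of 5 and with no filter beyond FPKM above 0, and 3 with no variance trend; the stricter filters, median-ratio scaling, quantile normalization and voom weights gave 0. Leaving out 1 library gave 0 to 4 calls there, 0 to 3 for the interaction and 0 to 16 on a Col-0 mother, the 16 without Col-0 x Col-0 replicate 2. No variance trend gave 1 call on a Col-0 mother. The cause of these moves was not tested. AT1G69825 passed with a pseudocount of 5 (adjusted p = 0.024, limma), with no filter (0.036) and with no variance trend (0.012), AT5G58412 under the same settings (0.028, 0.036 and 0.012), and AT5G17480 with a pseudocount of 0.1 (0.034) and with depth as a covariate (0.016); all 3 rest on few fragments.

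Same-numbered replicates were not paired by the labels, and their deviations from the group means correlated at 0.01 to 0.14. With the replicate number as a block, 0 genes were called (limma, 1203 higher and 410 lower at an unadjusted p under 0.05, smallest adjusted p = 0.142), and also 0 for the interaction and on a Col-0 mother.

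Among the genes named, 44 values turned sign. Under median-ratio scaling the log2 change was -0.03 for EBF1, -0.06 for SUC5, -0.07 for CDKB1;1 and -0.02 for ARF2. Under quantile normalization it was 0.12 for AGL87, 0.07 for AAP1, -0.07 for EBF1, 0.09 for HDG3, 0.05 for WRI1, 0.02 for MSI1 and -0.02 for ARF2. With depth as a covariate it was 0.10 for AGL87, 0.04 for ABA2, 0.05 for AAP1, -0.11 for EBF1, 0.20 for HDG3, -0.03 for CDKB1;1, 0.01 for WRI1, 0.08 for CYCB1;2, 0.01 for MSI1 and -0.05 for ARF2. As single libraries were left out, it ran from -0.28 to 0.09 for AGL87, -0.28 to 0.04 for ZOU, -0.11 to 0.07 for ABA2, -0.06 to 0.02 for AAP1 and MSI1, -0.12 to 0.17 for SUC5, -0.02 to 0.12 for EBF1, -0.28 to 0.14 for EBF2, -0.29 to 0.03 for PCNA2, -0.36 to 0.27 for HDG3, -0.02 to 0.04 for CDKB1;1, -0.13 to 0.09 for WRI1, -0.36 to 0.96 for SESA1, -0.18 to 0.11 for CAT6, -0.22 to 0.11 for CYCB1;2, -0.08 to 0.21 for ARF2 and -0.20 to 0.13 for SBT1.7. The median over all genes, 0.08, was 0.01 after median-ratio scaling, -0.02 after quantile normalization and 0.16 without ein2-5 x ein2-5 replicate 1.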
